A study of Mus musculus with 12 samples.

Results

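Histone genes, histone variants and the chaperones that carry histones were followed in MEFs, the cultured fibroblasts of mouse embryos, here an immortalised line, with and without the acetyltransferases CBP and p300, and with and without doxycycline (Dox). Members were the genes of the deposited count table whose symbol begins with Hist and a digit or with H2af, the genes H3f3a, H3f3b, H1f0 and H1fx, and the named factors Asf1a, Asf1b, Chaf1a, Chaf1b, Hira, Nasp, Slbp, Casp8ap2 and Npat. This gave 36 of 12637 genes: 18 replication-dependent histone genes, 9 replacement variants, 6 chaperones and 3 factors of histone mRNA and histone loci. In all, 4 groups of 3 poly(A)-selected RNA-seq libraries were compared, KO with Dox, KO with DMSO, WT with Dox and WT with DMSO. KO cells were immortalised Crebbp fl/fl; Ep300 fl/fl MEFs with a stable Cre-ERT2, a Cre recombinase that 4-hydroxytamoxifen (4-OHT) switches on, and had been depleted of CBP and p300 with 4-OHT. WT cells carry only that label, and the sources used here do not say whether they had the floxed alleles, the Cre or 4-OHT, so that a difference of stock cannot be told apart from the genotype. Dox, an antibiotic that also blocks mitochondrial ribosomes, was given at 30 µg/ml for 24 hours, and all cells grew in DMEM with 10% serum. The labels do not tie replicates to separate cultures, and the p-values below therefore rest on a spread between libraries that may be only technical.

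Histones package DNA, and their genes fall into classes that are regulated in different ways. Replication-dependent genes sit in clusters and are transcribed in S phase, and their mRNAs normally end in a short stem-loop in place of a poly(A) tail. The stem-loop binding protein SLBP holds that structure during cleavage, export and translation. Some of these genes also give rise to polyadenylated mRNAs that end further downstream. Poly(A) selection favours those over the mRNAs without a tail but need not remove the latter fully. Replacement variants such as H2A.Z and H3.3 are made outside S phase too, mostly from spliced and polyadenylated mRNAs, and chaperones deliver histones to DNA during replication (CAF-1, ASF1, NASP) or independently of it (HIRA).

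The stem-loop is shown here because nearly all replication-dependent members carry it although they were measured in poly(A)-selected RNA. The histone stem-loop sequence, with any base allowed at 3 of its 16 positions, was searched on the sense strand of GENCODE M21 transcripts (GRCm38), and it was present in 16 of the 18 replication-dependent members and in H2afx. Across the annotation it occurred in 45 of 21951 protein-coding genes, 42 of them with a Hist symbol, and the 17 of these genes in the count table were all members. The 4 sequence kinds are shown, the most common with 2 sites, each given 5′ to 3′ with its 5 flanking bases on each side, the stem-loop in capitals.
Hist1h1c: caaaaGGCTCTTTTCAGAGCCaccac
Hist2h3c2: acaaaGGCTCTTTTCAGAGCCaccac
Hist1h4h: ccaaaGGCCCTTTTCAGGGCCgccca
Hist1h4i: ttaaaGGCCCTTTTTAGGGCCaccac
H2afx: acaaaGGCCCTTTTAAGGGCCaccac
The form of Hist1h1c and Hist2h3c2 was shared by 11 linker, H2A, H2B and H3 genes, that of Hist1h4h by 3 H4 genes and that of Hist1h4i by 2 H4 genes, while H2afx had its own. The stem-loop began 25 to 47 bases after the stop codon. In 14 of the 17 genes the annotated transcript ran on for more than 300 bases past it, with a median of 822 bases over the 17 and 840 in Hist1h1c. The poly(A) signal AATAAA was found past the stem-loop in 7 of the 17, so annotated length alone does not show a poly(A) end. The shortest remainders were 42 bases in Hist1h2ad and 46 in Hist1h4h. No stem-loop sequence was found in the annotated transcripts of Hist2h2be or Hist1h2bc, the second of which is spliced from 2 exons.

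**Figure D1:**
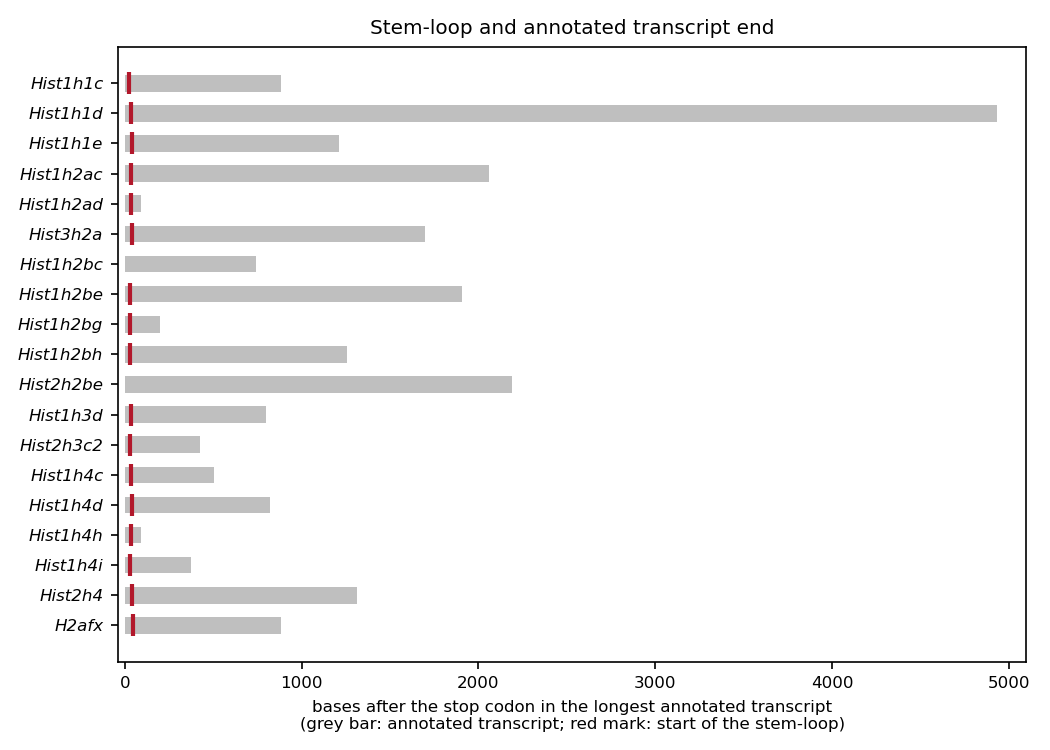
Bases after the stop codon in the longest annotated coding transcript of the 18 replication-dependent genes and H2afx (grey bars, linear axis), with the start of the stem-loop as a red mark. The marks lie 25 to 47 bases after the stop codon, while the bars run to 4931 bases in Hist1h1d and to 89 in Hist1h2ad.

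Libraries held 44476039 to 52173143 reads in genes. Levels are in CPM, read counts scaled to library size with TMM factors. Changes are log2 ratios from edgeR's quasi-likelihood fit of the 12 libraries, given ± the SE derived from that test with n = 3 and 3. Calls needed an adjusted p below 0.05, with the Benjamini-Hochberg adjustment made over the 12637 genes. Ep300 averaged 123 ± 3.98 CPM in KO DMSO and 197 ± 4.48 in WT DMSO, and Crebbp 59.9 ± 0.913 in KO DMSO and 66.8 ± 1.01 in WT DMSO (SD, n = 3 each). Counts over whole genes include exons outside the floxed part and do not check the deletion. Of 10 fibroblast markers 9 were measured, with summed levels of 2930 to 3060 CPM in KO DMSO and 12765 to 12847 in WT DMSO, and all 9 were lower in KO. Of the other marker lists, 3 of 6 macrophage, 1 of 5 muscle, 4 of 5 neural, 2 of 5 adipocyte and none of 5 endothelial and 5 epithelial genes were in the table, and of these 10 genes Cd68 alone was called higher in KO with DMSO. Reads left unmapped were 7.63% and 6.65% in KO DMSO replicates 1 and 2 and 1.85 to 2.09% in the other libraries. The 256 processed pseudogenes of the table summed to 936 to 951 CPM in KO Dox, 699 to 960 in KO DMSO, 1264 to 1320 in WT Dox and 914 to 941 in WT DMSO. KO DMSO replicate 1 and the WT DMSO libraries were grouped as low in them in an earlier account of these data, and a fit with a term for these 4 libraries is quoted where it ends a call. That name is kept below for this grouping, although the WT DMSO sums overlap those of KO Dox, which is outside it. What sets these libraries apart is not known.

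Every replication-dependent histone gene in the table was higher in KO cells, although the table's filter left no other outcome for 13 of the 18. Hist1h1c, a linker histone H1 gene, and Hist1h2bc, an H2B gene, were the most abundant of them. Together the 18 genes summed to 484 to 500.0 CPM in KO Dox, 510.3 to 526 in KO DMSO, 42.6 to 46.1 in WT Dox and 51.9 to 54.2 in WT DMSO. The mean sum was 9.73 times as high in KO DMSO as in WT DMSO and 11.1 times as high in KO Dox as in WT Dox. These sums rest mostly on Hist1h1c and Hist1h2bc. The 3 other genes that the filter would list from either genotype, Hist2h2be, Hist1h4i and Hist3h2a, summed to 56 to 57.7 CPM in KO Dox, 55 to 57 in KO DMSO, 13.2 to 14.1 in WT Dox and 14.5 to 15.9 in WT DMSO, with means 3.67 times as high in KO with DMSO and 4.14 times with Dox. As a description of the listed genes, the 18 log2 fold changes were 1.43 to 5.56 with DMSO and 1.59 to 6.63 with Dox, beside a median of 0.02 and 0.01 over all 12637 genes.

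The table itself limits what this count can show. Each gene in it reaches at least 1.03 CPM of all reads, without TMM factors, in at least 1 library, and 13 of the 18 genes stayed below that value in every WT library, so they are listed only through KO and had to be higher there. The 5 genes above it in both genotypes were Hist1h1c, Hist1h2bc, Hist2h2be, Hist1h4i and Hist3h2a, with log2 fold changes of 3.64, 3.35, 2.14, 1.43 and 2.39 with DMSO. GENCODE M21 annotates 67 protein-coding Hist genes, and the other 49 were not analysed here. In the table as a whole 89.4% of genes were called in KO against WT with DMSO and 89.9% with Dox, and 89.8% and 89.7% did not overlap, so a call or a gap between groups is common in this contrast. Calls at least 2-fold higher made up 10.8% of the table in either condition, and all 5 of these genes were among them, with no overlap between KO and WT libraries. Calls higher at any size made up 45.1% of the table in each condition.

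**Figure D2:**
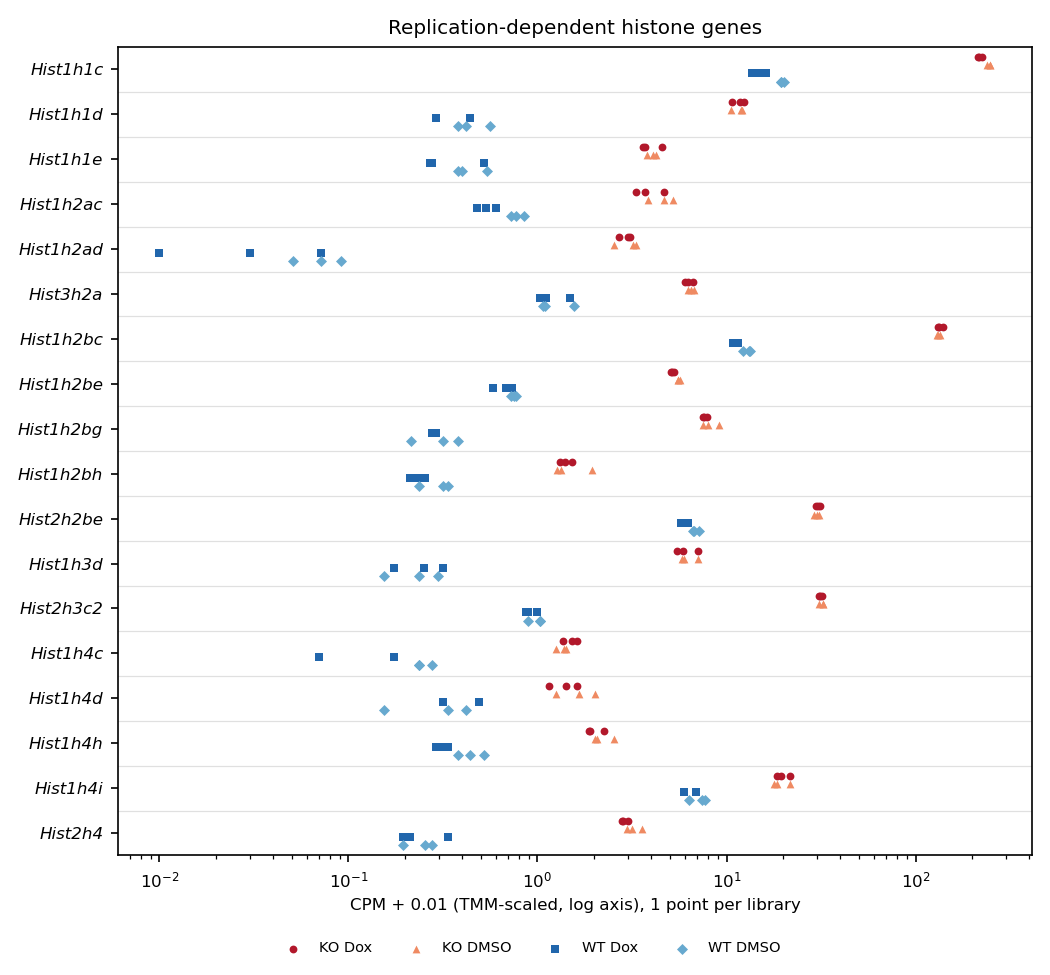
TMM-scaled CPM plus 0.01 on a log axis for the 18 replication-dependent histone genes, 1 point per library, for KO Dox, KO DMSO, WT Dox and WT DMSO. KO points lie to the right of all WT points in every row, from 1.14 to 249 CPM in KO and from 0 to 20.2 in WT.

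Among linker histones, which bind the DNA between nucleosomes, Hist1h1c (chromosome 13, positions 23738808 to 23740367 of GRCm38, plus strand) had 249, 249 and 238 CPM in the KO DMSO libraries and 20.2, 19.4 and 19.3 CPM in the WT DMSO libraries. With Dox it had 218, 226 and 214 CPM in KO and 13.7, 14.8 and 16.2 CPM in WT. The groups are far apart, with a log2 fold change of 3.64 ± 0.0375 with DMSO (edgeR, adjusted p = 3e-28) and 3.88 ± 0.0391 with Dox. Per kilobase of exon it stood at 157 CPM in KO DMSO, where only H3f3b was higher among members. Hist1h1d and Hist1h1e are listed only through KO. Hist1h1d had 10.5, 11.9 and 12.1 CPM in KO DMSO and 0.369, 0.410 and 0.553 in WT DMSO, a log2 fold change of 4.69 ± 0.127. Hist1h1e changed by 3.22 ± 0.174, and it overlaps Hist1h2be and the pseudogene Gm11398 on the same strand, so reads of these genes cannot be assigned with certainty.

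The H2B genes Hist1h2bc and Hist2h2be rose as well. Hist1h2bc (chromosome 13, positions 23684199 to 23692908, plus strand) had 134, 129 and 131 CPM in KO DMSO and 13.1, 12.2 and 13.3 in WT DMSO, a log2 fold change of 3.35 ± 0.0375 (edgeR, adjusted p = 8.85e-29). Hist2h2be, the H2B gene of the chromosome 3 cluster, had 29.1, 30.8 and 30.2 CPM in KO DMSO against 7.15, 6.64 and 6.71 in WT DMSO, with a log2 fold change of 2.14 ± 0.0480 with DMSO and 2.36 ± 0.0489 with Dox. All of its windows of 100 bases were found in no other annotated gene. Here and below windows were compared in transcript orientation only, so an overlap on the opposite strand does not count against a gene. The less abundant Hist1h2bg, Hist1h2be and Hist1h2bh, listed only through KO, changed by 4.80 ± 0.141, 2.91 ± 0.110 and 2.38 ± 0.227 with DMSO.

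The 3 H2A genes of this class in the table had few reads in WT libraries, and Hist1h2ad and Hist1h2ac are listed only through KO. Hist1h2ad (chromosome 13, positions 23574381 to 23574952) had 128, 150 and 178 reads in the KO DMSO libraries against 2, 3 and 4 in the WT DMSO libraries. With Dox it had 142, 164 and 161 reads in KO against 0, 1 and 3 in WT. Summed over libraries and corrected for library size, the ratio of KO to WT was 49.1 with DMSO (95% exact interval 25.6 to 108) and 108 with Dox (41.9 to 398), intervals that cover counting error only. Hist1h2ac, which lies head to head with Hist1h2bc, had 5.18, 3.82 and 4.66 CPM in KO DMSO and 0.717, 0.840 and 0.757 in WT DMSO, a log2 fold change of 2.56 ± 0.160. Hist3h2a on chromosome 11, which overlaps Trim17 on the same strand, changed by 2.39 ± 0.118.

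Both H3 genes and 4 of the 5 H4 genes are listed only through KO, so their direction was fixed by the filter and their values are a description. Hist2h3c2 (chromosome 3, positions 96238108 to 96239127, minus strand) had 30.9, 32.3 and 32.5 CPM in KO DMSO and 0.881, 1.02 and 1.02 in WT DMSO, a log2 fold change of 5.03 ± 0.0683. With Dox its values were 30.7, 31.9 and 31.1 CPM in KO and 0.858, 0.983 and 0.877 in WT. Hist1h3d changed by 4.83 ± 0.192 with DMSO and 4.68 ± 0.188 with Dox. Hist1h4i, the single H4 gene listed through both genotypes, had 21.7, 17.7 and 18.5 CPM in KO DMSO and 7.70, 6.33 and 7.45 in WT DMSO, a log2 fold change of 1.43 ± 0.0945. Hist2h4 changed by 3.79 ± 0.182, and Hist1h4c, Hist1h4d and Hist1h4h by 2.47 ± 0.223, 2.47 ± 0.269 and 2.32 ± 0.176.

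These genes resemble each other, and reads that match several copies were set apart as multimapping in the table (5.41 to 6.57% of all reads). The share of 100-base windows found in no other annotated gene ranged from 36.4% in Hist1h2ad and 38.4% in Hist2h3c2 to 100% in Hist2h2be, Hist1h4d and Hist2h4, with a median of 85.5% over the 18 genes. Levels of single copies are uncertain for that reason. Among RNAs of other classes that normally lack a poly(A) tail, 8 genes annotated as snoRNA, rRNA or miscellaneous RNA were in the table, of which 2 were higher and 5 lower in KO with DMSO. Their summed level, most of it from 1 rRNA gene, was 298 to 312 CPM in KO DMSO and 330 to 418 in WT DMSO. The GENCODE types snRNA, scaRNA and ribozyme had no gene in the table. RNAs of this kind were thus not fully removed, and the part of histone mRNAs without a tail in the histone reads was not tested.

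**Figure D3:**
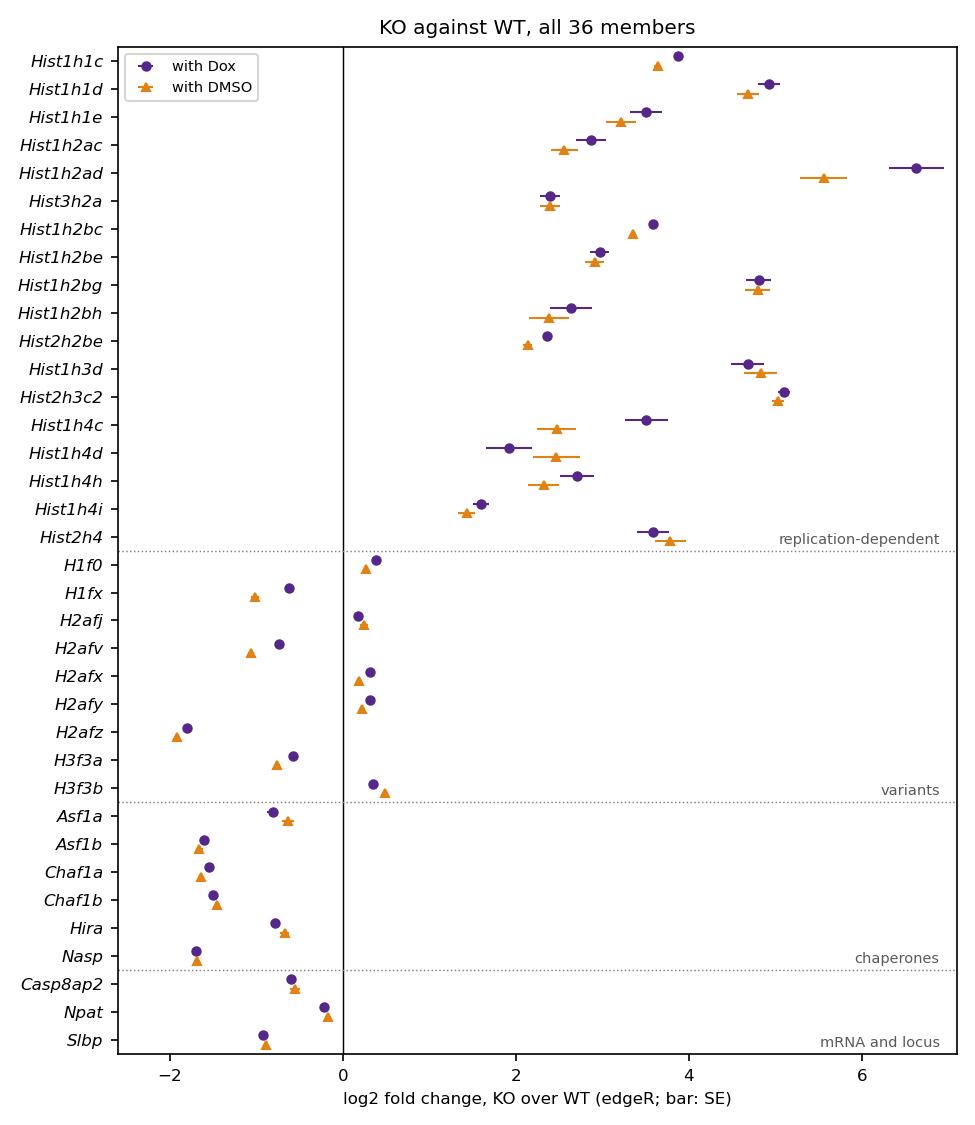
Log2 fold change of KO over WT for all 36 members with Dox and with DMSO, with SE bars from edgeR (n = 3 and 3). All 18 replication-dependent genes lie at 1.43 or above, all 6 chaperones and the 3 mRNA and locus factors lie below 0, and the 9 variants lie between -1.92 and 0.49.

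The 14 members on chromosome 13 include 13 within 209.3 kb, from position 23531050 to 23740367, and 3 others lie within 42.2 kb of chromosome 3. Upstream sequences are shown for a head-to-head pair and a linker gene that were higher in KO and for H2afz and Nasp, which were lower. They are the 250 bases before the RefSeq start (GRCm38.p6), in transcript orientation. Capitals mark, on either strand, CCAAT (the CCAAT box), the TATA box letters TATAAA, the octamer ATTTGCAT and TTTGAA (the CHR element of cell cycle genes).
Hist1h2ac, chr13:23683960-23684209, minus strand: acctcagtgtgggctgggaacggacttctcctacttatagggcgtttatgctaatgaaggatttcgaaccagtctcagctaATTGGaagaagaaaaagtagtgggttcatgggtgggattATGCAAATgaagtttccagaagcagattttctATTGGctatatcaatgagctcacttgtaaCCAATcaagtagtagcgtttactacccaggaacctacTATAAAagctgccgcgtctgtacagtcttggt
Hist1h1c, chr13:23738557-23738806, plus strand: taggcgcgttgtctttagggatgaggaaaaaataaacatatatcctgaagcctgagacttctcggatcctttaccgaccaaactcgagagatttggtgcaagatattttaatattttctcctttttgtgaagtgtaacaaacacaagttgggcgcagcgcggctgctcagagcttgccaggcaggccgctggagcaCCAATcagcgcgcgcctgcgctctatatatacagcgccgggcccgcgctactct
H2afz, chr3:137864237-137864486, plus strand: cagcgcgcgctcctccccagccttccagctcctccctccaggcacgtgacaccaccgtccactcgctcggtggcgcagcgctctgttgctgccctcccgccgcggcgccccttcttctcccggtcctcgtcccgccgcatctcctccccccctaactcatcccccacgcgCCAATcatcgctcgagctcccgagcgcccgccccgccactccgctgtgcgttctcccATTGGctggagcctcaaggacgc
Nasp, chr4:116627952-116628201, minus strand: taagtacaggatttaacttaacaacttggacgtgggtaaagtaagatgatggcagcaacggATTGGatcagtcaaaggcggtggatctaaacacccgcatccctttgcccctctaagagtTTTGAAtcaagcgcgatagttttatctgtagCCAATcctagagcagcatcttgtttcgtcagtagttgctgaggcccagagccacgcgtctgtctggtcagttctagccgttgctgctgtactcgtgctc
The Hist1h2ac sequence covers most of the 251 bases between the GENCODE starts of Hist1h2ac and Hist1h2bc and reaches into the start of Hist1h2bc, and it holds the CCAAT box, the TATA box and the octamer. H2afz and Hist1h1c hold only the CCAAT box of the marked motifs, and Nasp holds it and the CHR element. Of 32 members with a RefSeq window, CCAAT was found in 12 of 15 replication-dependent genes, 5 of 8 variants and 7 of 9 chaperones and mRNA factors, against 33.8% of all 32851 windows. TATAAA was found in 7, 1 and 0 of these and in 12.4% of all windows, and the octamer in 4, 1 and 0 and in 1.6% of all windows. TTTNNCGC, an E2F-like sequence, was found in 0, 0 and 2 (4.3% of all windows), and TGACGTCA, the binding sequence of CREB, in Hist1h4h alone among members (1.5% of all windows). Its shorter form TGACG, not in capitals above, was found in 7, 1 and 4 (17.8% of all windows). TTTGAA was found in 7, 1 and 2 (16% of all windows). Motifs were searched on both strands and could overlap.

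Among the replacement variants H2afz, which encodes the H2A.Z variant found at promoters, and its relative H2afv were lower in KO, H1fx and H3f3a also fell, and H3f3b, H1f0, H2afx, H2afy and H2afj were higher. With DMSO 5 of 9 were called higher and 4 lower, shares near the 45.1% and 44.3% of all genes. At least 2-fold lower were 3, beside 16.7% of all genes, and none was at least 2-fold higher. With Dox the counts were again 5 and 4, with 1 at least 2-fold lower beside 16.6% of all genes. Summed over the 9 genes, levels were 1772 to 1788 CPM in KO DMSO and 1796 to 1829 in WT DMSO. H3f3b made the largest part, with means of 1130 and 807 CPM, and the kinds differed. The 5 H2A variants summed to 325 to 338 CPM in KO DMSO and 653 to 678 in WT DMSO. The 2 H3 variants summed to 1182 to 1191 and 896 to 913, and the 2 linker variants to 252 to 267 and 233 to 240.

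H2afz (chromosome 3, positions 137864487 to 137866922, plus strand) had 127, 126 and 126 CPM in KO Dox, 114, 114 and 111 in KO DMSO, 429, 451 and 438 in WT Dox and 432, 432 and 419 in WT DMSO. Its log2 fold change was -1.92 ± 0.0233 with DMSO (edgeR, adjusted p = 4.73e-28) and -1.80 ± 0.0230 with Dox, the lowest of any member in both. In 87.0% of its 100-base windows no other annotated gene matched, the rest being shared with processed pseudogenes. H2afv, the second H2A.Z gene, had 42, 43.2 and 41.8 CPM in KO DMSO and 90.9, 88 and 85.9 in WT DMSO, a log2 fold change of -1.06 ± 0.0309. The count of H2afz was 2.64 to 2.73 times that of H2afv in KO DMSO and 4.75 to 4.92 times in WT DMSO.

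H3.3, the replacement form of histone H3, is encoded by H3f3a and H3f3b, which went in opposite directions. H3f3b (chromosome 11, positions 116021912 to 116027962, minus strand) had 1125, 1132 and 1133 CPM in KO DMSO and 799, 815 and 808 in WT DMSO, a log2 fold change of 0.49 ± 0.0198 (edgeR, adjusted p = 2.37e-17). H3f3a had 56.4, 58.8 and 56.7 CPM in KO DMSO and 96.5, 98 and 95.7 in WT DMSO, a log2 fold change of -0.76 ± 0.0294 (edgeR, adjusted p = 9.31e-18), and it overlaps the antisense gene H3f3aos. The count ratio of H3f3a to H3f3b was 0.0501 to 0.0519 in KO DMSO and 0.119 to 0.121 in WT DMSO. H3f3b was the member with the highest level per kilobase of exon in both, 380 ± 1.49 CPM in KO DMSO and 271 ± 2.64 in WT DMSO (SD, n = 3 each).

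Of the linker variants, H1f0, an H1 gene known for its expression in differentiated and non-dividing cells, had 234, 248 and 242 CPM in KO DMSO and 196, 201 and 205 in WT DMSO, a log2 fold change of 0.27 ± 0.0234 with DMSO and 0.39 ± 0.0234 with Dox. H1fx had 18.4, 18.4 and 16.9 CPM in KO DMSO and 36.3, 36.9 and 35.2 in WT DMSO, a log2 fold change of -1.01 ± 0.0451. Counts of Hist1h1c were 0.982 to 1.07 times those of H1f0 in KO DMSO and 0.0945 to 0.103 times in WT DMSO. H2afx, whose phosphorylated protein marks DNA breaks and whose mRNA carries the stem-loop shown above, was at 0.19 ± 0.0331 with DMSO and 0.31 ± 0.0334 with Dox. H2afy, which encodes macroH2A, a variant of silent chromatin, was at 0.22 ± 0.0311 and 0.32 ± 0.0310, and H2afj at 0.25 ± 0.0449 and 0.17 ± 0.0449. H1f0, H1fx and H2afy overlap antisense genes, and whether reads were counted by strand is not given.

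Per kilobase of exon, the order of members differed between genotypes. In WT DMSO it ran from H3f3b over H2afz (241 ± 4.18 CPM), H1f0 (97.6 ± 2.03) and H2afv (54.0 ± 1.56) to H2afx (40.4 ± 1.40). In KO DMSO it ran from H3f3b over Hist1h1c (157 ± 4.20), H1f0 (117 ± 3.57) and Hist1h2bc (114 ± 2.28) to H2afz (63.8 ± 0.934), each with SD and n = 3. H1f0 and Hist1h2bc, neighbours in that order, differed by less than the sum of their SDs.

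**Figure D4:**
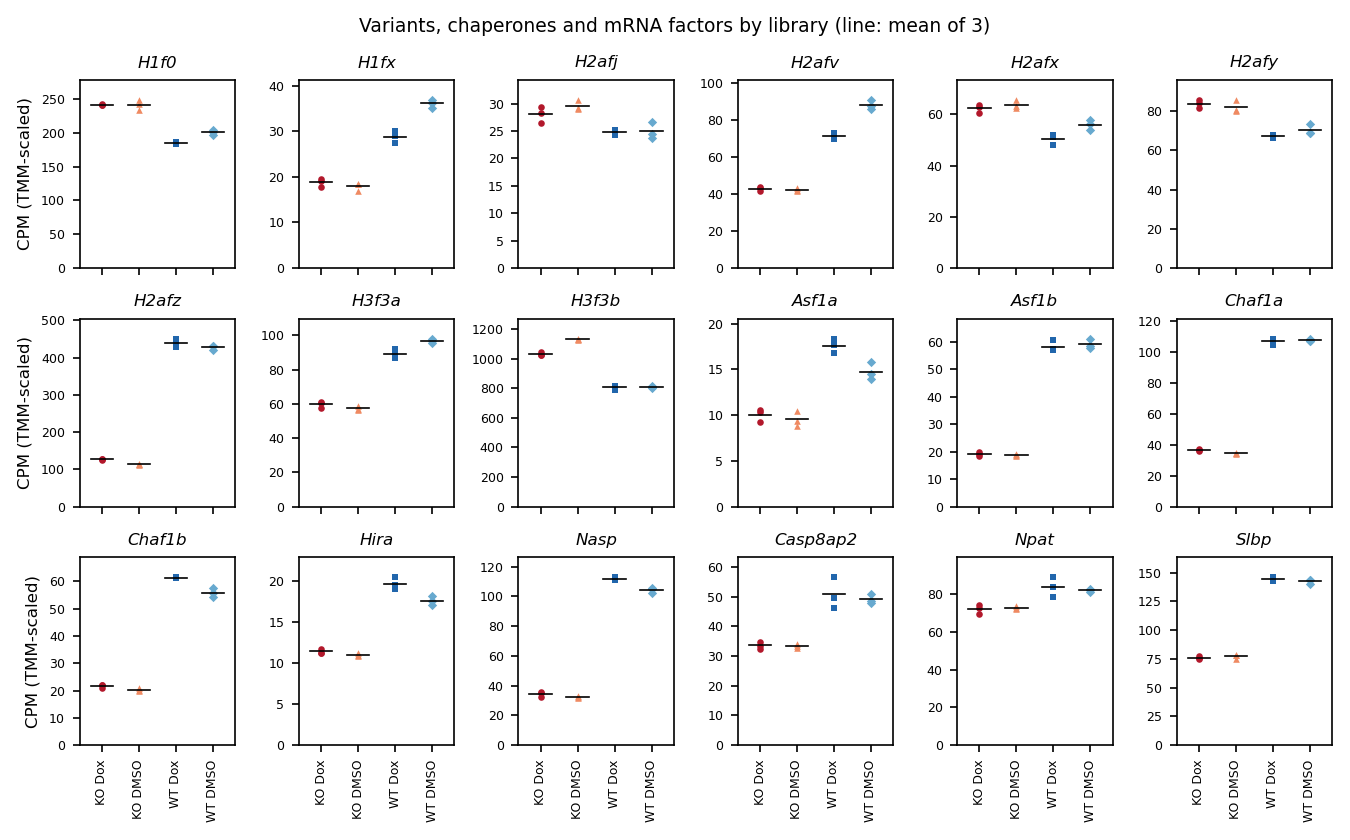
TMM-scaled CPM of the 9 variants, 6 chaperones and 3 mRNA and locus factors in KO Dox, KO DMSO, WT Dox and WT DMSO, 1 point per library with the mean as a line, linear axes from 0. KO points of H2afz, the chaperones and Slbp lie below all WT points, and those of H3f3b, H1f0, H2afx and H2afy above them.

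All 6 chaperones were lower in KO cells in both conditions, beside 44.3% of all genes called lower with DMSO and 44.8% with Dox, with lower fold changes for those tied to DNA replication (Chaf1a, Chaf1b, Nasp and Asf1b) than for Asf1a and Hira, a difference that was not tested. Their summed level was 130.2 to 135 CPM in KO Dox, 125 to 127 in KO DMSO, 372 to 380.5 in WT Dox and 358 to 361 in WT DMSO, so KO DMSO had 35.2% of the WT DMSO mean. Chaf1a and Chaf1b encode the large subunits of CAF-1, which places new H3 and H4 behind the replication fork. Chaf1a had 35, 34.8 and 33.7 CPM in KO DMSO and 109, 107 and 107 in WT DMSO, a log2 fold change of -1.64 ± 0.0275 (edgeR, adjusted p = 2.81e-25). With Dox Chaf1a had 37.1, 35.8 and 36.6 CPM in KO and 108, 105 and 109 in WT. Chaf1b had 20.3, 19.9 and 20.8 CPM in KO DMSO and 54.1, 55.6 and 57.5 in WT DMSO, a log2 fold change of -1.46 ± 0.0343. With Dox Chaf1b had 20.9, 22.1 and 22 CPM in KO and 61.4, 61.3 and 61.1 in WT. Nasp, which encodes a carrier of soluble H3 and H4, had 31.7, 32.8 and 32.5 CPM in KO DMSO and 106, 102 and 105 in WT DMSO, a log2 fold change of -1.69 ± 0.0312 (edgeR, adjusted p = 1.94e-24). With Dox Nasp had 35.3, 32.6 and 35.6 CPM in KO and 113, 111 and 112 in WT.

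ASF1 hands H3 and H4 to CAF-1 or HIRA and exists as a pair of paralogs. Asf1b, the form linked to dividing cells, had 18.8, 18.3 and 19.1 CPM in KO DMSO and 57.7, 61.2 and 58.7 in WT DMSO, a log2 fold change of -1.66 ± 0.0375. With Dox Asf1b had 19.9, 19.1 and 18.6 CPM in KO and 57, 57.4 and 60.8 in WT. Asf1a had 8.80, 10.4 and 9.35 CPM in KO DMSO and 14, 14.5 and 15.8 in WT DMSO, a log2 fold change of -0.63 ± 0.0653. With Dox Asf1a had 10.3, 9.27 and 10.5 CPM in KO and 16.8, 18.4 and 17.6 in WT. The count ratio of Asf1b to Asf1a was 1.75 to 2.14 in KO DMSO and 3.71 to 4.22 in WT DMSO. Hira, which encodes the H3.3 chaperone, had 10.9, 11 and 11.3 CPM in KO DMSO and 17.6, 18.2 and 17.1 in WT DMSO, a log2 fold change of -0.67 ± 0.0471. With Dox Hira had 11.7, 11.3 and 11.3 CPM in KO and 19.1, 19.5 and 20.5 in WT. With Dox the 6 fold changes ran from -1.70 for Nasp to -0.78 for Hira. Of the 100-base windows of Hira 60.7% were found in no other annotated gene, the rest being shared with Gm28539 on the same strand. Asf1a and Chaf1a overlap the protein-coding genes Mcm9 and Ubxn6, which lie on the opposite strand.

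The 3 factors of histone mRNA and histone loci were lower in KO as well, beside 44.3% of all genes called lower with DMSO and 44.8% with Dox. The listed replication-dependent genes were higher, but for 13 of the 18 the table's filter had fixed that direction. A link between these changes was not tested. Slbp, the stem-loop binding protein gene (chromosome 5, positions 33634952 to 33652574, minus strand), had 77.1, 75.2 and 75.9 CPM in KO Dox, 75.3, 78.5 and 78 in KO DMSO, 143, 145 and 146 in WT Dox and 140.1, 144 and 144 in WT DMSO. Its log2 fold change was -0.88 ± 0.0242 with DMSO (edgeR, adjusted p = 6.43e-21) and -0.93 ± 0.0241 with Dox. Casp8ap2, which encodes FLASH, a protein of histone pre-mRNA cleavage, had 33.3, 32.7 and 34.2 CPM in KO DMSO and 48, 48.4 and 50.9 in WT DMSO, a log2 fold change of -0.56 ± 0.0579. With Dox Casp8ap2 had 33.5, 32.5 and 34.9 CPM in KO and 56.4, 46.2 and 49.6 in WT. Npat, the coactivator of histone gene transcription at entry into S phase, had 72.6, 72.2 and 73.6 CPM in KO DMSO and 82.6, 81.2 and 82 in WT DMSO. With Dox it had 72.6, 69.6 and 73.9 CPM in KO and 88.7, 78.5 and 83.8 in WT. Its log2 fold change was -0.17 ± 0.0339 with DMSO (edgeR, adjusted p = 6.19e-05), and it was not called without TMM scaling (-0.02), where the median of all genes lay at 0.17. In bulk RNA, fewer cells in S phase and less RNA per such cell cannot be told apart.

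Most genes that surround these members in the pathway were lower in KO. Of 27 other histone chaperones and exchange factors 7 were higher, 19 lower and 1 not called with DMSO, with a median log2 fold change of -0.42. Among them Nap1l1, a carrier of H2A and H2B, was at -1.39 ± 0.0226, Mcm2, a helicase subunit that also holds H3 and H4, at -1.27 ± 0.0225 and Ssrp1, a subunit of FACT, at -1.10 ± 0.0206. Of 19 measured genes of histone mRNA processing and locus control 4 were higher, 13 lower and 2 not called, with a median of -0.29. Ccne1 and Cdk2, the cyclin and kinase that activate NPAT, were at -1.46 ± 0.0302 and -1.07 ± 0.0311, and Ncbp1, a cap-binding protein gene, was at -0.05 ± 0.0255 and not called. All 28 S phase genes and all 20 genes of G2 and mitosis were lower in KO with DMSO, with medians of -1.7 and -2.24, beside 44.3% of all genes called lower (44.8% with Dox, where all 28 and all 20 were lower too). S phase genes summed to 1241 to 1258 CPM in KO DMSO and 3825 to 3875 in WT DMSO, which is 32.5% of the WT mean. Mcm2 stands in both the chaperone and the S phase list, and Ccne1 and Ccne2 in both the mRNA and the S phase list. The part of these lists in the histone values was not tested.

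Doxycycline moved few members, and by small amounts. In WT cells 12 of 36 members were called (beside 53.1% of all genes), 4 higher (23.9% of all genes) and 8 lower (29.2%). The 8 were 3 linker genes, 2 H2B genes, H2afv, H2afx and H3f3a, and the 4 were chaperones. Dox and DMSO libraries did not overlap for 16 members, beside 57.5% of all genes. Low counts limit this comparison, since 13 of the histone genes had 50 or fewer reads in every WT library.

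Hist1h1c fell in WT, to 13.7, 14.8 and 16.2 CPM with Dox against 20.2, 19.4 and 19.3 with DMSO, a log2 fold change of -0.40 ± 0.0507 (edgeR, adjusted p = 8.12e-07). H1fx had 27.4, 30.1 and 29.1 CPM with Dox and 36.3, 36.9 and 35.2 with DMSO, a log2 fold change of -0.32 ± 0.0422 (edgeR, adjusted p = 8.53e-07). H2afv had 69.7, 73.2 and 71.6 CPM with Dox and 90.9, 88 and 85.9 with DMSO, a log2 fold change of -0.30 ± 0.0292 (edgeR, adjusted p = 7.23e-09). In each of these the Dox libraries lay below all DMSO libraries. Hist1h2bc, Hist2h2be, H1f0, H2afx and H3f3a were lower by smaller amounts, at -0.19 ± 0.0526, -0.21 ± 0.0635, -0.12 ± 0.0237, -0.15 ± 0.0341 and -0.12 ± 0.0282. H2afz was at 0.04 ± 0.0216 and H3f3b at -0.01 ± 0.0198, neither called, although H2afz was in 7 of the 12 fits that left out 1 library (0.05 or 0.06). Among genes with few reads, Hist1h2ac was at -0.55 ± 0.25 and Hist1h4c at -0.88 ± 0.382, neither called. Hist1h2ac was called with a replicate block (-0.55), with the compared groups alone (-0.53) and without WT Dox replicate 1 (-0.64), and Hist1h4c with voom (-0.96) and without WT Dox replicate 1 or 3 (-1.09 in each).

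The 4 members called higher with Dox in WT were Asf1a at 0.25 ± 0.0594, Hira at 0.16 ± 0.0433, Chaf1b at 0.14 ± 0.0297 and Nasp at 0.10 ± 0.0273. With a term for the set of libraries low in pseudogenes none of these 4 was called, at 0.09, 0.12, 0.13 and 0.06, and the calls of Hist1h2bc and H2afx were lost too, at -0.15 and -0.09, which left 6 calls, all lower. Within WT this set divides the libraries exactly as DMSO and Dox do, and its effect is estimated from the KO DMSO libraries alone. Slbp, Npat and Casp8ap2 were at 0.02 ± 0.0231, 0.03 ± 0.0335 and 0.05 ± 0.0550 and were not called, although Casp8ap2 was without WT Dox replicate 2 (0.11). Of the 28 S phase genes 15 were higher and 3 lower with Dox in WT, and 19 of 20 genes of G2 and mitosis were lower, beside 23.9% of all genes higher and 29.2% lower. Other chaperones had 8 higher and 6 lower of 27, and other mRNA and locus genes 6 higher and 4 lower of 19. These list counts are from the fit without the term, which called 6706 of all genes, and were not repeated with it, where 2850 were called.

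In KO cells 3 of 36 members were called with Dox (beside 21.7% of all genes), 1 higher (11.6% of all genes) and 2 lower (10.1%). H2afz rose to 127, 126 and 126 CPM with Dox against 114, 114 and 111 with DMSO, a log2 fold change of 0.16 ± 0.0239 (edgeR, adjusted p = 2.61e-05). H3f3b had 1022, 1041 and 1020.4 CPM with Dox and 1125, 1132 and 1133 with DMSO, a log2 fold change of -0.14 ± 0.0197 (edgeR, adjusted p = 1.59e-05). Hist1h1c had 218, 226 and 214 CPM with Dox and 249, 249 and 238 with DMSO, a log2 fold change of -0.16 ± 0.0289 (edgeR, adjusted p = 0.000309). The groups did not overlap in these 3 or in 3 other members, beside 38.3% of all genes. Hist1h2bc was at 0.03 ± 0.0278, H2afv at 0.02 ± 0.0330 and Slbp at -0.02 ± 0.0251, none called. Of the other 27 chaperones 6 were higher and 5 lower, and of 19 mRNA and locus genes 2 and 2. S phase genes had 12 higher and 0 lower of 28, and genes of G2 and mitosis 7 and 0 of 20. The 6 chaperones were at 0.03 to 0.09, also not called, although Chaf1a was without KO DMSO replicate 1 (0.10), and Chaf1a and Nasp were when WT Dox replicate 1 (0.08 and 0.09) or KO Dox replicate 2 (0.10 and 0.14) was left out, which made 5 calls in each case. Hist1h2ac, at -0.24 ± 0.115, was called without KO DMSO replicate 2 (-0.34) or KO Dox replicate 1 (-0.38).

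**Figure D5:**
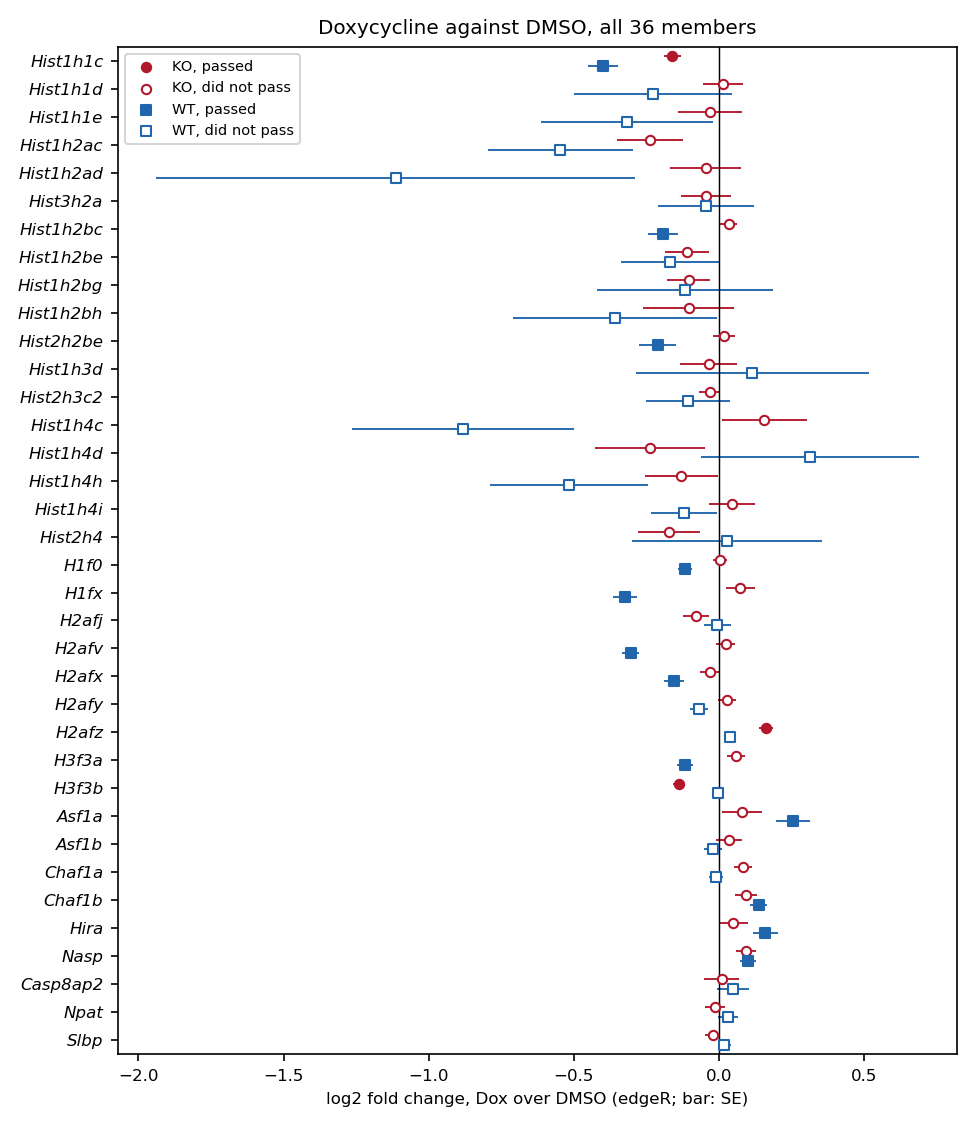
Log2 fold change of Dox over DMSO in KO and in WT for all 36 members, with SE bars from edgeR (n = 3 and 3) and filled symbols where the adjusted p was under 0.05. Filled symbols lie between -0.40 and 0.25, 3 in KO and 12 in WT, and wide bars belong to genes with few reads in WT.

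The difference of the Dox effects, KO minus WT, was called for 10 of 36 members (beside 32.5% of all genes), 9 higher (18.2% of all genes) and 1 lower (14.3%). The largest called differences were for H1fx at 0.40 ± 0.0645 (edgeR, adjusted p = 4.33e-05), which had 0.07 in KO and -0.32 in WT, and for H2afv at 0.33 ± 0.0441 (edgeR, adjusted p = 3.66e-06), with 0.02 in KO and -0.30 in WT. H3f3b was the single member with a called negative difference, -0.13 ± 0.0279 (edgeR, adjusted p = 0.000772). None of the chaperones or mRNA factors was called, with differences of -0.18 for Asf1a to 0.09 for Chaf1a. For comparison, all 20 genes of G2 and mitosis had a positive difference that was called, with a median of 0.28. S phase genes had 4 higher and 1 lower of 28, with a median of 0.04.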

How the data were processed

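Poly(A)-enriched RNA was sequenced by BGISEQ-500 protocols, per the labels' protocols. The values deposited by the authors are raw counts of reads for each gene, and the submitters' processing notes name STAR 2.6.0a, HTSeq 0.10.0 and genome build GRCm38.p6 without their roles or the strand of counting. The 4 sums of reads without a gene (17.4 to 22.9% of all reads) entered neither library sizes nor tests. Counts were tested with edgeR 4.0.16 in R 4.3.3 (TMM scaling, robust quasi-likelihood F test, 4 group means, 5 contrasts over 12 libraries), with Benjamini-Hochberg adjustment over 12637 genes. The SE is the size of the log2 change divided by the square root of F. No filter was added to that of the deposited table. The procedure was tested on simulated data. No pair of replicates agreed within sampling noise.

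Alternatives were median-ratio scaling, no TMM scaling, a filter of 1 CPM in 6 libraries, DESeq2 1.42.0, voom in limma 3.58.1, fits of the compared groups alone, a replicate block, a term for 4 libraries low in pseudogenes, and each library left out. Genes were located in GENCODE M21. Upstream windows were from RefSeq tables of GRCm38.p6 with Python 3.11.15. All members could be named. Each chaperone and each factor of histone mRNA and histone loci is described with the value in every library. For at most 3 other called members per role, taken by smallest p, values of groups compared are given. Members and gene lists were chosen with earlier results of these data known.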

Additional observations from a re-analysis of the deposited data

Results flagged for a closer look

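The effect of Dox differed between KO and WT cells for 10 of 36 members by the test of that difference (edgeR interaction of genotype and Dox, adjusted over 12637 genes). That is 27.8%, below the 32.5% of all genes, so the count does not set the members apart. Each difference is the log2 Dox effect in KO minus that in WT. Linker genes had differences of 0.24 for Hist1h1c (adjusted p = 0.0031, edgeR), 0.40 for H1fx and 0.12 for H1f0. The H2B genes Hist1h2bc and Hist2h2be each had 0.23 (adjusted p = 0.00507 and 0.0195, edgeR), and Hist2h2be was not called in 4 of 12 fits with 1 library left out, those without WT DMSO replicate 1, WT Dox replicates 2 and 3 or KO Dox replicate 2 (0.20 or 0.21). H2A variants had 0.33 for H2afv, 0.12 for H2afz and 0.12 for H2afx, the last close to the threshold (adjusted p = 0.0495, edgeR). H3.3 genes had 0.17 for H3f3a and -0.13 for H3f3b. For H3f3b the effect was -0.14 in KO and -0.01 in WT, and for H3f3a 0.06 in KO and -0.12 in WT. For Hist2h2be it was 0.02 in KO and -0.21 in WT. The 3 WT DMSO libraries and KO DMSO replicate 1 were grouped as low in processed pseudogenes. The WT DMSO sums (914 to 941 CPM) nevertheless overlap those of KO Dox (936 to 951), which is outside the set. With a term for that set the differences of H2afx (0.08) and H2afz (0.11) were not called. H2afx was also not called without TMM scaling, with DESeq2, voom or a replicate block, or in 9 of 12 fits with 1 library left out (0.09 to 0.13 in all of these), and H2afz was not called without KO DMSO replicate 3 (0.09). Hist1h4c was called with voom (1.11) and without WT Dox replicate 1 (1.24), and H2afy without KO DMSO replicate 1 (0.12).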

How the results depend on the processing

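In KO against WT all 36 members were called under every alternative in both conditions, each library left out in turn included, except without TMM scaling with DMSO, where Npat was lost and 35 remained. In the main fit 89.4% of all genes were called with DMSO and 89.9% with Dox. For the 13 members listed only through KO the filter had fixed the direction, so their calls under these settings test little. Without TMM scaling the median of all genes moved to 0.17 with DMSO and 0.14 with Dox, and 58.6% of calls with DMSO were higher, beside 50.5% with TMM. For Dox in WT, 12 or 13 members were called under the other settings and 12 to 15 with 1 library left out, but 6 with the term for the libraries low in pseudogenes. For Dox in KO, 3 were called under the other settings and 3 to 5 with 1 library left out. Differences of the Dox effects were called for 9 or 10 members under the other settings, for 8 to 11 members with 1 library left out and for 8 with that term, the loss of H2afx being the most frequent. No pairing of the samples by replicate number was detected. Deviations of same-numbered libraries correlated at -0.108 to 0.112 in 18 pairs, 1 of them over 0.1. For differently numbered libraries the range was -0.133 to 0.141 in 36 pairs, 2 of them over 0.1. With a replicate block the calls were 36 and 36 for KO against WT, 13 for Dox in WT, 3 for Dox in KO and 9 for the difference. Of 3564 member values under alternatives, 68 had the opposite sign, none of them called in either fit. The cause of these changes was not tested. Depth limits the genes with few reads in WT, and single copies of similar genes remain uncertain.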
